A study of Mus musculus with 6 samples.

Results

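Carbonic anhydrases are enzymes that interconvert carbon dioxide and water with bicarbonate and a proton, and so set how fast pH can be buffered inside and outside a cell. Family members differ in where they act, in the cytosol, in mitochondria, on the outer cell surface or in secretions. The CA-related proteins share the fold but have lost the catalysis. In brain, carbonic anhydrases of glia and neurons work beside bicarbonate and proton transporters in the handling of the acid that neuronal activity produces.

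The members described are Car2, Car3, Car4, Car8, Car10, Car11, Car12, Car13 and Car14, 9 of the 16 carbonic anhydrase genes and of 19938 genes that could be named and tested on these arrays. A member was taken as the row of the deposited table that carries its symbol alone, and each of the 9 had 1 such row. The members were listed with earlier results of these arrays known, and they were chosen by gene family after the measured differences of these arrays had been seen. The values and p-values below therefore describe them and are no independent evidence that the family responds. The samples were primary cultures of OF1 mouse brain, taken at embryonic day 17 and differentiated in fetal calf serum into mixed neurons and glia. In serum-free medium without growth factors, 3 cultures received 1,25-dihydroxyvitamin D3 (1,25D), the hormonally active form of vitamin D, at 10 nM, and 3 control cultures received vehicle, although a second label calls the controls not treated. The labels name no genetic change, no treatment time and no number of embryos per culture. The labels call the replicates biological, but none ties a replicate to a litter of its own. The p-values thus reflect variation among these 6 cultures, which may be partly technical.

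Values are log2 of the authors' RMA intensity for 1 array per culture, and a difference is 1,25D minus control on that scale. Array medians over genes ranged from 240.8 to 252.9 in linear intensity for the 1,25D cultures and from 240.4 to 251.0 for the controls, and the median gene had a log2 difference of 0.0074. Of the markers for the labelled cells, the astrocyte gene Gfap lay between 11.15 and 12.06 in the 1,25D cultures and between 11.00 and 11.95 in the controls. The neuronal gene Map2 lay between 10.11 and 10.93 in the 1,25D cultures and between 10.63 and 11.24 in the controls. Map2 was the brightest of 9 neuron markers. Over the 6 arrays Tubb3 lay between 6.75 and 7.87, and Slc17a6, between 6.01 and 6.30, was below the lower quartile of genes. Dcx rose from 6.8 in replicate 1 of both groups to 9.8 (1,25D) and 9.4 (control) in replicate 3. Arrays of equal replicate number resembled each other, so each member is also compared within these 3 pairs.

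Promoter sequence from RefSeq (build GRCm38.p6) was matched for 5 of the 9 members, Car4, Car10, Car11, Car12 and Car14, in 7 windows of the 250 bases before a transcription start. The windows were searched on both strands for 4 half-sites of the kind the vitamin D receptor binds: AGGTCA, its variant AGTTCA, a further variant GGGTCA and the variant GGTTCA. Of 32851 RefSeq windows of the same length, 38.6% held at least 1 of them, and 0.0396% held 2 in direct repeat with 3 bases between. Car4 had the single half-site found in the 7 windows, GGGTCA on the forward strand, its first base 230 bases before the start, and no window held the repeat. The windows of Car14, the member with the largest difference, and of Car4, the member with the half-site, are shown for comparison, 5′ to 3′ on each gene's own strand, with the half-site in capitals. They lie at chr3:95904686-95904935 on the minus strand for Car14 and chr11:84957504-84957753 on the plus strand for Car4.
Car14: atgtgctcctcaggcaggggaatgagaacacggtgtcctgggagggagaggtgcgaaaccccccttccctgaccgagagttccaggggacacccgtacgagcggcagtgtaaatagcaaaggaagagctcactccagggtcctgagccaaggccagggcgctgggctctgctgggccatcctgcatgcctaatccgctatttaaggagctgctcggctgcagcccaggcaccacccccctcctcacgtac
Car4: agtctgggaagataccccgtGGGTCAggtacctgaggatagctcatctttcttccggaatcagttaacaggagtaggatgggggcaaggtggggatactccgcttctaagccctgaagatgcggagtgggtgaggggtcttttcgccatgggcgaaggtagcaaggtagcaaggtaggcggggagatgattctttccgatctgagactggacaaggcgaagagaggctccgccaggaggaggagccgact
The absence of a match says only that these letters are not in the window.

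In the 1,25D cultures Car14 stood above the controls in every replicate, and the other 8 members lay close to their control levels or varied more between replicates than between treatments. Car14 is a transmembrane carbonic anhydrase whose catalytic domain faces the outside of the cell, found on neurons and on glia of the retina. Its log2 intensity was 10.12, 9.04 and 8.76 in the 1,25D cultures, against 8.16, 7.89 and 7.78 in the control cultures. The lowest 1,25D culture lay above the highest control, and the 1,25D culture of replicate 1 stood well above the rest of its group. The means were 9.30 ± 0.72 in the 1,25D cultures and 7.94 ± 0.19 in the controls (SD, n = 3 each), a 2.57-fold higher mean.

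For Car14 the log2 difference was 1.36 ± 0.32 (SE), with a 95% interval of 0.61 to 2.11, or 1.53 to 4.32 as a fold. Within pairs 1, 2 and 3 the 1,25D culture was 3.90-fold, 2.21-fold and 1.96-fold above its control. Among all 19938 genes this was the 11th highest log2 difference and the 47th smallest p. The adjusted p was 1 (limma, Benjamini-Hochberg over all genes), with an unadjusted p of 0.0032, so the gene did not pass the threshold of 0.05. With the replicate number as a block, the adjusted p was 0.11 and the unadjusted p 2.2e-04, again short of the threshold. Chosen after the data were seen, blocked fits with array weights (adjusted p = 0.039), without replicate 1 (0.0039) or without replicate 3 (0.047) called Car14 higher, while the blocked fit without replicate 2 gave 0.999 and a blocked fit to every deposited row, named or not, gave 0.67. The difference was 1.06 without replicate 1 in the blocked fit, and 0.95 when the 1,25D culture of replicate 1 alone was left out.

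**Figure D1:**
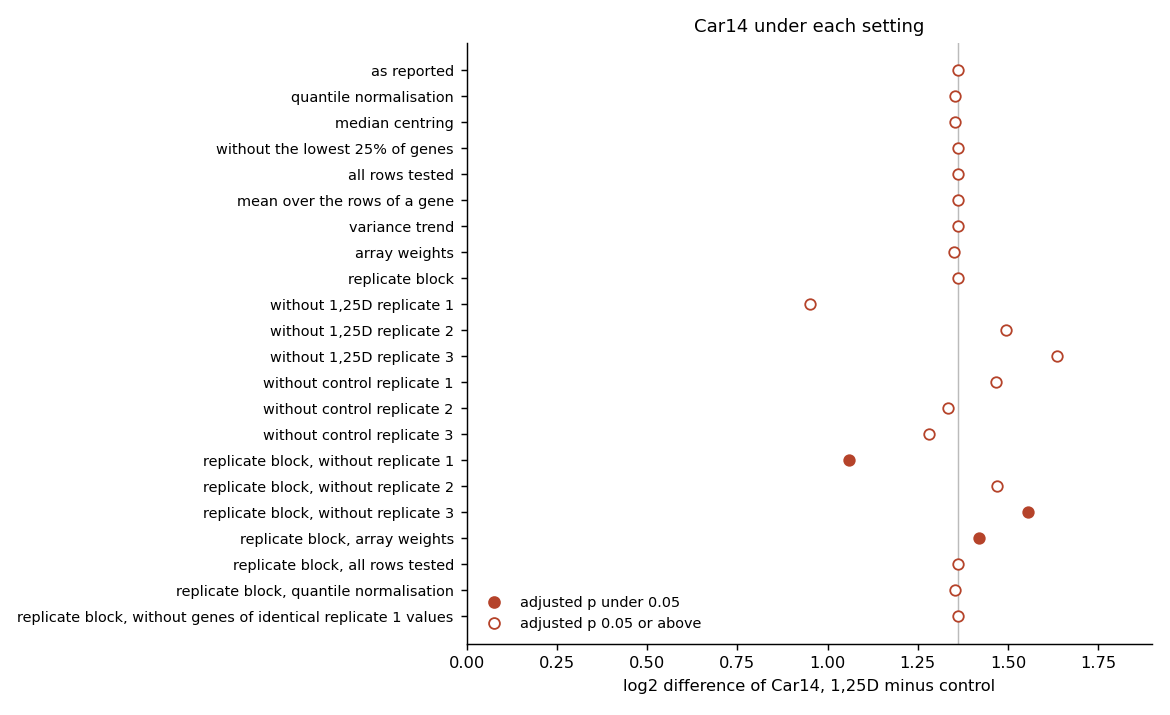
Log2 difference of Car14 (1,25D minus control, horizontal axis) under the reported fit and 21 alternatives, 1 point per setting, filled where the adjusted p was under 0.05. All points lie between 0.95 and 1.64, and the 3 filled points belong to fits with the replicate block.

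None of the 9 members passed the threshold in either direction. Over all genes, 0.0251% were called higher and 0% lower without the block, and 0.0903% higher and 0% lower with it. At an unadjusted p under 0.05, Car14 was the single member of 9 in both fits, where 1.48% of all genes lay under it without the block and 5.78% with it. Groups that did not overlap were found for 1 member with higher 1,25D values, Car14, against 2.63% of all genes, and for 0 with lower values, against 1.52%. Car14 was also the single member at least 1.5-fold higher in each of the 3 pairs, which held for 0.196% of all genes. The median log2 difference of the 9 members was -0.02, beside 0.0074 over all genes, with 4 members above 0 and 5 below.

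**Figure D2:**
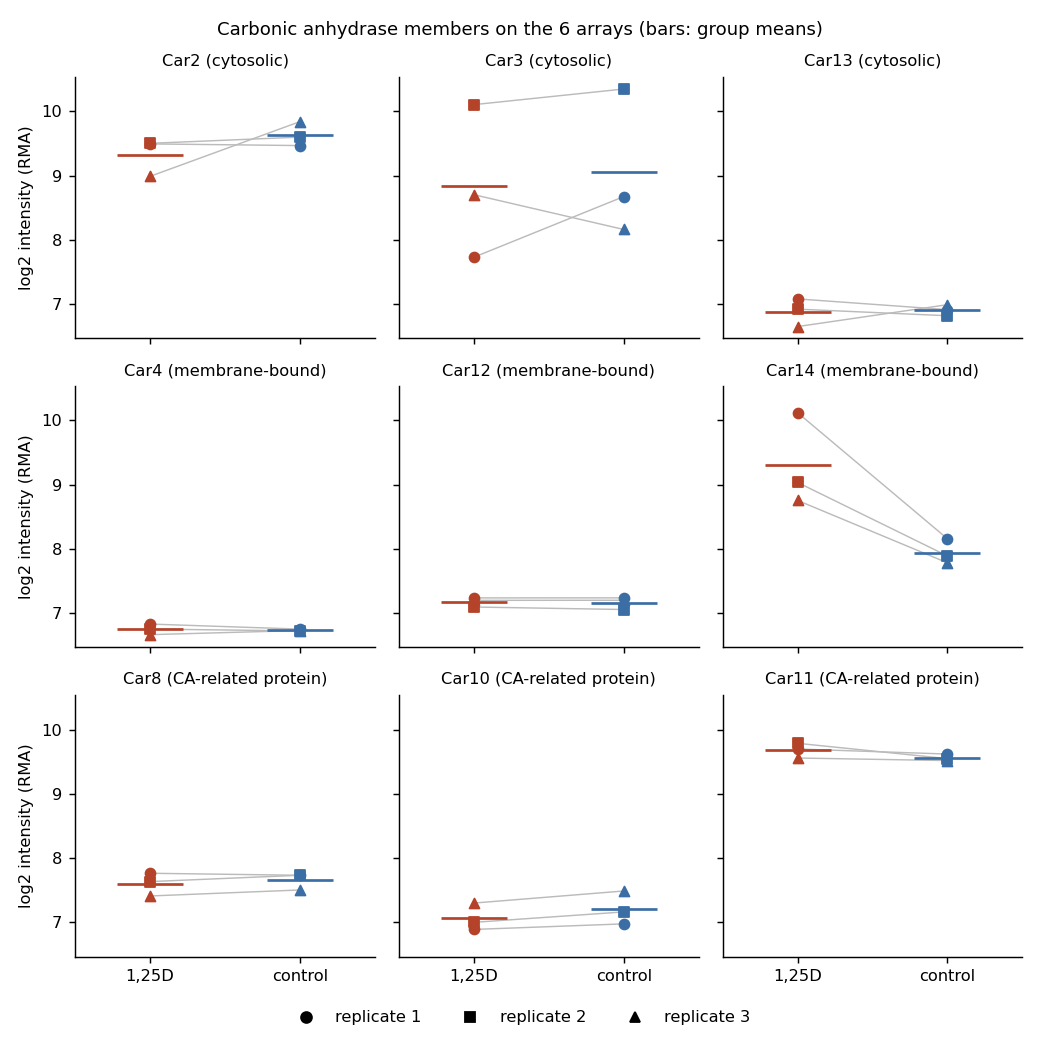
Log2 intensity (vertical axis, same scale in each panel) of the 9 members on the 6 arrays, 1,25D left of control, with a marker shape for each replicate number, lines joining equal numbers and bars for group means. The groups separate for Car14, while Car3 spreads over more than 2 log2 units within each group.

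The other membrane-bound members were Car4 and Car12. Car4, which is held on the outer face of the membrane by a lipid anchor and is known from the capillary endothelium of brain, had 6.83, 6.75 and 6.66 in the 1,25D cultures, against 6.75, 6.72 and 6.73 in the controls. Its difference was 0.01 ± 0.09 (SE), with a 95% interval of -0.20 to 0.23. The values lay near the lower quartile of genes on each array (6.69 to 6.86), where RMA compresses differences. Car12, a transmembrane enzyme like Car14, had 7.24, 7.10 and 7.20 in the 1,25D cultures, against 7.24, 7.06 and 7.20 in the controls. Equal replicate numbers thus differed by at most 0.04, and the interval of the difference was -0.22 to 0.24. For both genes the groups overlapped, and the intervals leave out a change of the size measured for Car14. The signs of both differences turned after quantile normalisation, to -0.02 for Car4 and -0.01 for Car12.

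Car2, Car3 and Car13 are cytosolic. Car2, a fast enzyme of oligodendrocytes, astrocytes and choroid plexus, had 9.49, 9.50 and 8.99 in the 1,25D cultures, against 9.47, 9.60 and 9.84 in the controls. Its mean was lower in the 1,25D cultures by 0.31 ± 0.17 (SE) on the log2 scale, but pairs 1 and 2 differed by 0.03 and -0.10 and pair 3 by -0.85, so 1 pair carried the difference. The unadjusted p was 0.11 and the adjusted p 1 (limma), and without the 1,25D culture of replicate 3 the difference was -0.14.

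Car3, a cytosolic enzyme of low activity known from skeletal muscle and fat, varied most of all members, with an SD of 1.05 over the 6 arrays. It had 7.73, 10.11 and 8.70 in the 1,25D cultures, against 8.67, 10.35 and 8.16 in the controls. The replicate 2 cultures were the highest in both groups, by more than the treatment moved any pair. The pairs differed by -0.94, -0.24 and 0.54, and the mean difference of -0.22 ± 0.69 (SE) had an interval of -1.83 to 1.40. Its sign turned without the 1,25D culture of replicate 1 (0.34) or the control of replicate 2 (0.43), so no direction is given for Car3.

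Markers of other cells that such cultures can hold were read beside Car3. Their signs were compared after the values of Car3 were seen. No share of such matches over all genes was taken, so they are a description. The 6 ependymal markers, all measured, differed at their median by -0.35, -0.16 and 0.40 from pair 1 to pair 3. Those are the signs of Car3, and 3 of the 11 marker lists had them: the choroid plexus median was -0.13, -0.07 and 0.21 in the pairs, and the oligodendrocyte median -0.0097, -0.15 and 0.11. The summed ependymal intensity, as log2, was 11.31, 11.51 and 11.32 in the 1,25D cultures and 11.79, 11.74 and 10.92 in the controls. It was highest in replicate 2 for the 1,25D cultures but not for the controls. The oligodendrocyte sum (11.58, 12.03 and 11.72, against 11.83, 12.17 and 11.50 in the controls) was highest in replicate 2 of both groups, like Car3. Most of that sum came from 1 gene, Cnp (10.83, 11.44 and 11.10, against 11.23, 11.59 and 10.81 in the controls). It therefore says little of the dimmer markers of the list. The choroid plexus sum (11.83, 11.78 and 12.10, against 12.15, 11.90 and 11.63 in the controls) was highest there in neither group. The 8 markers of skeletal muscle and fat had a sum between 9.94 and 10.06 in the 1,25D cultures and between 9.90 and 10.02 in the controls, and a median of 0.02, 0.12 and 0.01 in the pairs. Of these 8, Acta1 (7.79 to 8.12 over the 6 arrays), Ckm (7.56 to 7.81) and Cidec (7.21 to 7.43) lay above the lower quartile of genes on each array. Adipoq (5.67 to 6.16), Myh3 (5.73 to 6.12) and Fabp4 (5.59 to 5.78) lay below it on each array, and Des and Myog were on both sides of it. No marker was at 0, since RMA gives every row a level, and the part of these cells in the values of Car3 was not tested. In RNA from whole cultures, fewer cells of a type and less RNA per cell cannot be told apart.

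Car13, a cytosolic enzyme of broad distribution, had 7.08, 6.92 and 6.65 in the 1,25D cultures, against 6.91, 6.82 and 6.99 in the controls. The groups overlapped, and the difference was -0.02 ± 0.13 (SE). Its sign turned in 5 of the 21 alternatives. Car13 lay near the lower quartile of genes (6.69 to 6.86), where RMA compresses differences. In the 1,25D culture of replicate 3 it was below that array's quartile of 6.78.

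Car8, Car10 and Car11 are the CA-related proteins. Car8, which binds the inositol trisphosphate receptor and is abundant in Purkinje cells, had 7.76, 7.63 and 7.41 in the 1,25D cultures, against 7.73, 7.73 and 7.50 in the controls. Car10, a secreted ligand of neurexins, had 6.89, 7.00 and 7.30 in the 1,25D cultures, against 6.97, 7.16 and 7.49 in the controls. Car11, a relative of Car10 that is expressed in brain, had 9.70, 9.79 and 9.56 in the 1,25D cultures, against 9.62, 9.55 and 9.52 in the controls. Replicate 3 was the highest of its group for Car10 and the lowest for Car11 in both groups, and the groups of each gene overlapped.

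Car10 was lower in each of the 3 pairs (-0.09, -0.16 and -0.19) and Car11 higher in each (0.08, 0.24 and 0.04). The mean differences were -0.15 ± 0.16 for Car10, 0.12 ± 0.10 for Car11 and -0.05 ± 0.13 for Car8 (SE), with adjusted p-values of 1 without the block and 0.89, 0.90 and 0.94 with it (limma). Their 95% intervals were -0.53 to 0.23, -0.11 to 0.35 and -0.35 to 0.24. A change of the size seen for Car14 lay outside all of them. In replicate 1, however, Car10 (6.89 and 6.97) lay near the lower quartile of genes (6.69 to 6.86), where RMA compresses differences. Car8 turned to 0.04 without the 1,25D culture of replicate 3, while Car10 and Car11 kept their signs in all 21 alternatives but not their sizes. Leaving out 1 array at a time, Car10 ranged from -0.26 (without the 1,25D culture of replicate 3 or the control of replicate 1) to -0.0063 (without the control of replicate 3), and was -0.06 without the 1,25D culture of replicate 1. Car11 ranged from 0.07 without the 1,25D culture of replicate 2 to 0.18 without that of replicate 3.

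**Figure D3:**
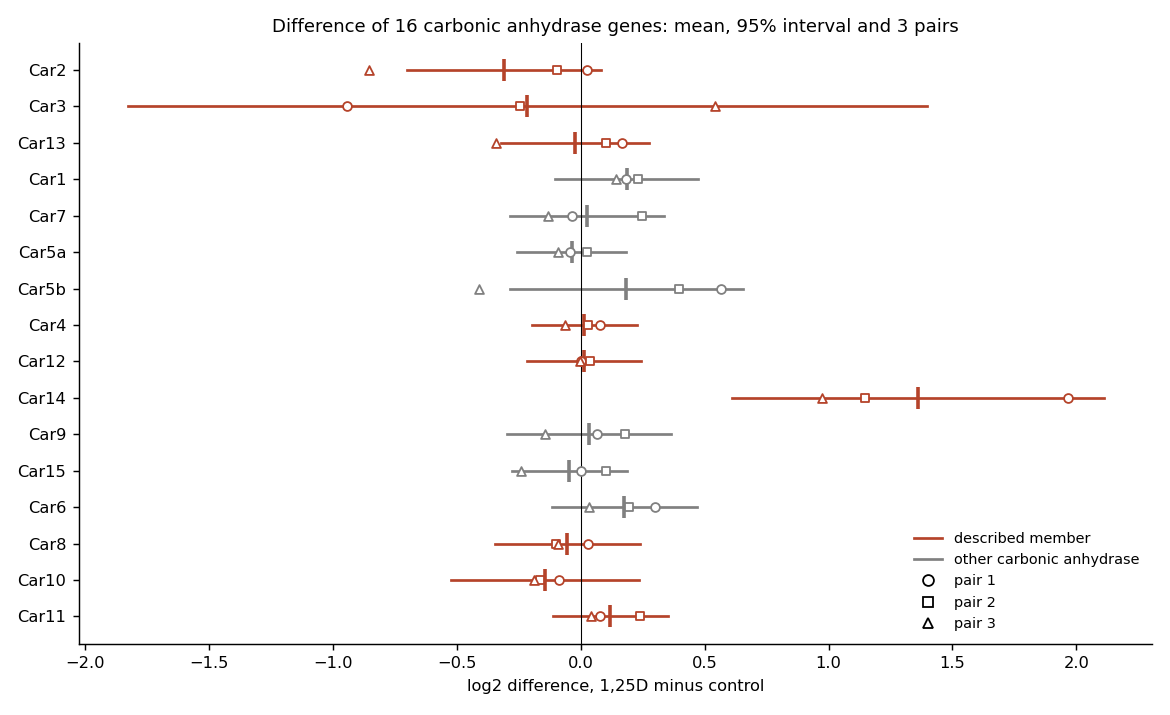
Log2 difference (horizontal axis, 1,25D minus control) of the 16 carbonic anhydrase genes, with the mean as a tick, its 95% interval without the block as a line and the 3 pairs as open markers. Car14 is the single gene whose interval, 0.61 to 2.11, leaves out 0, and Car3 has the widest, -1.83 to 1.40.

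The remaining 7 carbonic anhydrase genes, fixed as a list beside the members, had differences between -0.05 and 0.18 and none passed, with a median of 0.03. Car5b, a mitochondrial enzyme, had 10.93, 10.88 and 10.17 in the 1,25D cultures, against 10.37, 10.48 and 10.58 in the controls. Its 1,25D culture of replicate 3 was the lowest of the 6 arrays, as it was for Car2, Car4, Car8, Car13, Car5a, Car7 and Car15. Its pairs differed by 0.57, 0.40 and -0.41, with a mean of 0.18 ± 0.20 (SE). Car1, a cytosolic enzyme known from red blood cells, was higher in each pair, by 0.18, 0.23 and 0.14, with overlapping groups and a blocked adjusted p of 0.86 (limma). Car6, the secreted enzyme of saliva, had a difference of 0.18 ± 0.13 (SE). Car6 (5.27 to 5.73 over the 6 arrays) lay below the lower quartile of genes (6.69 to 6.86) on each array. Car9 (6.43 to 6.86) lay on both sides of that quartile. At such levels RMA compresses differences, so a small change of either gene could be missed. Car9, a surface enzyme known for its induction by low oxygen, had 0.03 ± 0.14, Car7 0.03 ± 0.13, Car5a -0.04 ± 0.10 and Car15, a lipid-anchored enzyme, -0.05 ± 0.10 (SE).

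Car13, Car1, Car3 and Car2 are 4 protein-coding genes in a row on chromosome 3 of the RefSeq annotation. Their differences were -0.02, 0.18, -0.22 and -0.31, and the high replicate 2 level of Car3 was not seen in its neighbours Car1 (7.13 and 6.90 in the 1,25D culture and control of replicate 2) or Car2 (9.50 and 9.60). Car14 lies elsewhere on that chromosome. Its nearest protein-coding neighbours, added after the values of Car14 were seen, were Aph1a, a subunit of gamma-secretase, with a difference of 0.11 ± 0.14, and Anp32e, a histone chaperone, with -0.11 ± 0.15 (SE). Anp32e had 9.05, 8.53 and 8.77 in the 1,25D cultures, against 9.05, 8.89 and 8.74 in the controls, and neither neighbour passed.

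The genes whose pattern over the 6 arrays was most like that of Car14, by the root mean square difference of log2 values centred on each gene's mean, were Lpl (0.14), Nupr1 (0.22) and Vdr (0.23). Lpl, lipoprotein lipase, had 8.77, 8.03 and 7.37 in the 1,25D cultures, against 6.93, 6.61 and 6.73 in the controls. Nupr1, a stress-induced nuclear protein, had 10.08, 8.45 and 8.49 in the 1,25D cultures, against 7.88, 7.33 and 7.77 in the controls. Vdr, the vitamin D receptor, had 9.63, 8.51 and 8.43 in the 1,25D cultures, against 7.25, 6.93 and 7.11 in the controls. All 3 shared with Car14 the highest level in the 1,25D culture of replicate 1 and groups that did not overlap. Their adjusted p-values were 1, 1 and 0.38 without the block and 0.21, 0.33 and 0.052 with it (limma), so none passed. For Car3 the most alike were Pth2r, a parathyroid hormone receptor family member (0.31), Ccdc3 (0.31) and Npy6r, a neuropeptide Y receptor (0.32), each highest in replicate 2 of both groups. These likenesses were picked as the closest among 19938 genes on the same 6 arrays and are a description.

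**Figure D4:**
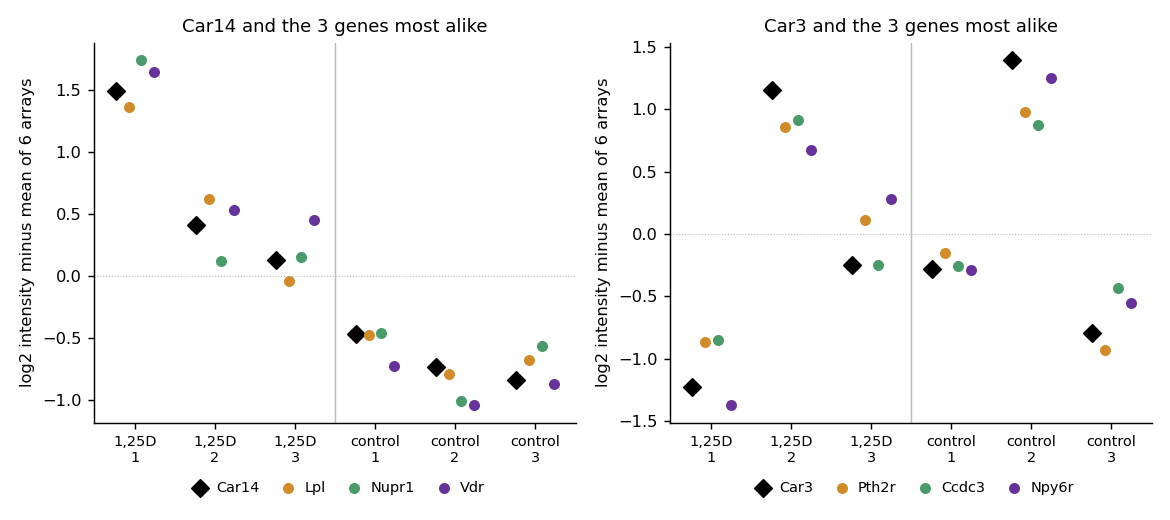
Log2 intensity minus the gene's mean over the 6 arrays (vertical axis) for Car14 and Car3 (black diamonds) and the 3 genes most alike to each (coloured circles), by array, 1,25D left of control. The Car14 group is highest in the 1,25D culture of replicate 1, and the Car3 group is highest in replicate 2 of both treatments.

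Bicarbonate transporters, which move the product of the enzymes across membranes, were measured for 13 of 14 listed genes. None passed, 8 lay above 0 and 5 below, and the median difference was 0.03. Slc4a10, a sodium-driven bicarbonate transporter of neurons and choroid plexus, had 7.75, 7.33 and 7.15 in the 1,25D cultures, against 7.03, 6.91 and 6.67 in the controls. The groups did not overlap, the pairs differed by 0.72, 0.42 and 0.48, and the difference was 0.54 ± 0.17 (SE), with an adjusted p (limma) of 1, and of 0.23 in the blocked fit. Slc4a4, the sodium bicarbonate cotransporter of astrocytes, had 11.01, 11.62 and 11.23 in the 1,25D cultures, against 11.05, 11.57 and 11.24 in the controls, with pair differences of -0.041, 0.044 and -0.012. Slc4a1, the anion exchanger of red blood cells, had a difference of 0.10 ± 0.13 (SE).

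Proton and lactate transporters were measured for 15 of 17 listed genes, with 0 called and a median of 0.07. Slc9a9, a sodium/proton exchanger of endosomes, had 8.68, 8.94 and 9.07 in the 1,25D cultures, against 9.36, 9.24 and 9.29 in the controls. Every 1,25D culture lay below every control, with a difference of -0.40 ± 0.12 (SE) and an adjusted p (limma) of 1, and of 0.63 in the blocked fit. Slc9a5, a sodium/proton exchanger of brain, had 0.20 ± 0.10, and Slc16a1, the monocarboxylate transporter that carries lactate with a proton, had -0.10 ± 0.17 (SE). Non-overlapping groups were found for 1 gene of the list with higher and 2 with lower 1,25D values, beside the shares of 2.63% and 1.52% over all genes.

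Among 7 of 8 listed acid sensors the median was 0.06 and none passed, with Asic3, a proton-gated channel, at 0.11 ± 0.10 and Gpr65, a proton-sensing receptor, at 0.13 ± 0.13 (SE). The list of receptor phosphatases with a carbonic anhydrase-like domain and of binding partners of the CA-related proteins had 9 of 11 genes measured, with 0 called and a median of -0.02. Ptprg and Ptprz1, the phosphatases with that domain, had -0.02 ± 0.14 and 0.02 ± 0.13 (SE). Nrxn3, a neurexin, had 7.67, 8.57 and 9.30 in the 1,25D cultures, against 8.40, 8.84 and 9.03 in the controls, and Cntn3, a contactin, had a difference of -0.13 ± 0.22 (SE). The 10 hypoxia response genes had a median of 0.04 and none passed. Among them Vegfa had 10.10, 8.85 and 9.05 in the 1,25D cultures, against 8.85, 8.60 and 9.19 in the controls, also highest in the 1,25D culture of replicate 1. Ldha had a difference of -0.14 ± 0.11 (SE), with every 1,25D culture below every control, as for 1.52% of all genes.

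**Figure D5:**
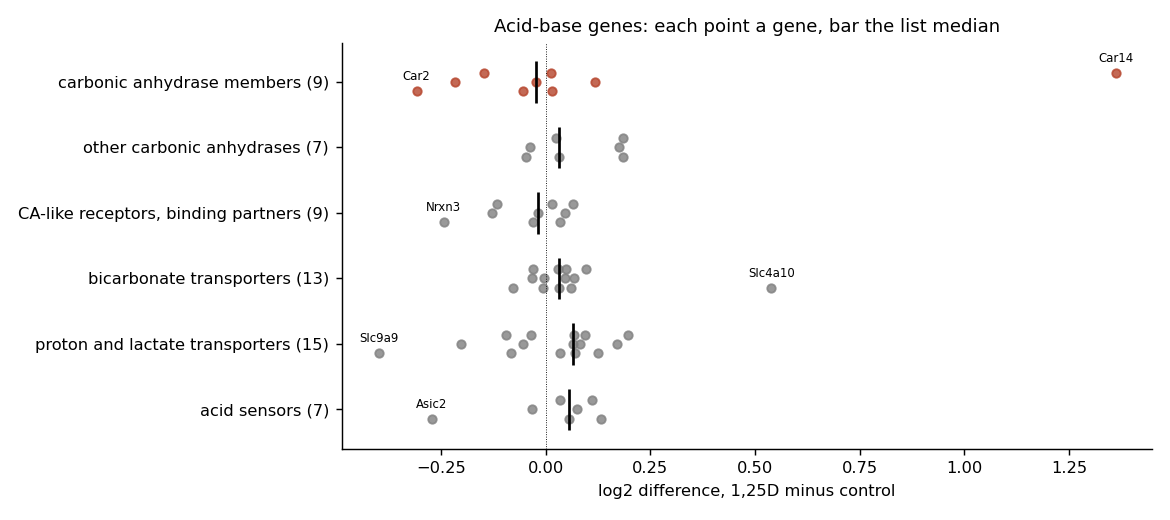
Log2 difference (horizontal axis, 1,25D minus control) of each measured gene in 6 lists of acid-base genes, with a bar at the list median and the number of genes in brackets. The medians lie between -0.02 and 0.07, and Car14 at 1.36 and Slc4a10 at 0.54 stand to the right of the rest.

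Cell type markers gave no called gene in any of the 11 lists, and the list medians lay between -0.09 and 0.07. Beside Car14, the 9 neuron markers had a median of -0.05, with 2 above 0 and 7 below. The 8 astrocyte markers had -0.07, with 1 above 0 and 7 below. Over all genes, 10563 lay above 0 and 9375 below. Groups did not overlap for Rbfox3, lower in 1,25D, beside 1.52% of all genes. The same held for Cx3cr1 and Col1a1, higher in 1,25D, beside 2.63%. The part of cell types in the values of Car14 was not tested. Beside Car2, the 9 oligodendrocyte markers had a median of -0.05, with Mbp at 0.09 ± 0.15 (SE). The summed oligodendrocyte intensity, as log2, was 11.58, 12.03 and 11.72 in the 1,25D cultures and 11.83, 12.17 and 11.50 in the controls. In the third pair, where Car2 was lower, the 1,25D culture had the higher sum, most of it from Cnp, and the list median was 0.11. Mobp (-0.23), Mog (-0.13) and Opalin (-0.07) went the other way in that pair. The part of oligodendrocytes in the values of Car2 was not tested. By smallest p, the leading markers were Rbfox3 (-0.34 ± 0.14) and Map2 (-0.29 ± 0.25) of neurons, Aldh1l1 (-0.27 ± 0.15) and Fgfr3 (0.18 ± 0.14) of astrocytes, and Sox10 (0.08 ± 0.10) and Opalin (-0.10 ± 0.13) of oligodendrocytes (SE). For choroid plexus they were Aqp1 (0.11 ± 0.09) and Otx2 (-0.09 ± 0.10), for endothelium Cdh5 (0.17 ± 0.10) and Flt1 (-0.10 ± 0.11), and for microglia Cx3cr1 (0.19 ± 0.09) and Aif1 (0.12 ± 0.10) (SE). Meningeal fibroblasts were represented by Col1a1 (0.42 ± 0.18) and Dcn (0.06 ± 0.11), ependyma by Dynlrb2 (-0.36 ± 0.30) and Ccdc153 (-0.10 ± 0.14), and Purkinje cells by Ppp1r17 (-0.13 ± 0.10) and Pvalb (-0.47 ± 0.42) (SE). Skeletal muscle and fat had Ckm (0.12 ± 0.11) and Adipoq (0.15 ± 0.13), and the red blood cell list, with 3 of 6 genes measured, had Hba-x (0.09 ± 0.13) and Alas2 (-0.04 ± 0.13) (SE). Gfap and Tubb3, markers of astrocytes and neurons, had differences of -0.08 ± 0.31 and -0.05 ± 0.29 (SE).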

How the data were processed

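RNA of 6 cultures was measured on 6 Affymetrix arrays, which a platform annotation resolves to genes. Per the submitters' processing notes, the authors used Affymetrix Expression Console and RMA to make the deposited intensity of each transcript cluster (versions and filters not given in the sources used here). Deposited intensities are linear (8.05 to 22019), and log2 was taken here. RMA gives no detection call, and the number of arrays limits the precision. GEO's annotation gave 1 symbol to 21789 of 35556 rows, which stand for 19938 genes. Of several rows of a gene, the brightest by its 6-array mean was kept. 1094 genes, no member among them, had identical values in both arrays of replicate 1.

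Differences (1,25D minus control) came from limma 3.58.1 under R 4.3.3 (lmFit, eBayes). P-values were adjusted by Benjamini-Hochberg across all 19938 genes, genes under 0.05 were called, and the script was checked on simulated data. Members and 17 lists (145 genes, 135 measured) were chosen with earlier results of these data known. Named genes were all carbonic anhydrases, the 2 smallest p-values of lists without a call, a short fixed set, and the 3 genes most like each of the 2 most variable members. Equal replicate numbers were treated as pairs from the data, since deviations from group means correlated at 0.51, 0.65 and 0.46 across genes, while the labels name no shared litter or day. A planned comparison of the member proteins was not run here. Promoter sequences are RefSeq's (GRCm38.p6); half-sites were searched by exact match.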

Additional observations from a re-analysis of the deposited data

How the results depend on the processing

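The comparison was repeated under 21 alternatives, of which 7, all with the replicate block beside another choice, were chosen after seeing the data. Car2, Car10, Car11 and Car14 had 1 sign throughout, with log2 differences between 0.95 and 1.64 for Car14. The number of members called higher was 0 as reported and 1 (Car14) in 3 settings with the replicate block added to another choice: array weights (difference 1.42), without replicate 1 (1.06) and without replicate 3 (1.56). The replicate block alone left Car14 at 1.36 with an adjusted p of 0.11 (limma) and changed no other call of a member. After quantile normalisation, with and without the replicate block, Car4 turned to -0.023, Car12 to -0.015 and the median of the endothelial markers to -0.043. Car13 turned to 0.020 with array weights, 0.051 with array weights and the replicate block, and 0.14 with the block without replicate 3. With the block, Car3 turned to 0.15 and Car4 to -0.018 without replicate 1, and Car12 to -8e-04 without replicate 2. The list medians moved by more than their spread between pairs for endothelial markers without the lowest 25% of genes and with the block without genes of identical replicate 1 values (-0.039 in both), with the block without replicate 1 (0.080) and without replicate 3 (0.046). So did those of Purkinje markers without the lowest 25% of genes (-0.22), hypoxia genes with the block without replicate 1 (-0.12) and neuron markers with the block without replicate 3 (-0.16). Leaving out 1 array at a time, differences ranged from -0.85 to 0.43 for Car3, -0.026 to 0.057 for Car4, -0.13 to 0.043 for Car8, -0.26 to -0.0063 for Car10, 0.066 to 0.18 for Car11, -0.042 to 0.054 for Car12 and -0.12 to 0.094 for Car13. In the same omissions 1 to 3 members had non-overlapping groups with higher 1,25D values (as many as 3 without the 1,25D culture of replicate 3) and 0 to 1 with lower values, where a group of 2 arrays overlaps less easily. List medians then ranged from -0.079 to 0.079 for the binding partners and CA-like receptors, -0.35 to 0.054 for neuron, -0.27 to 0.073 for astrocyte, -0.13 to 0.11 for oligodendrocyte, 0.0072 to 0.13 for microglia and -0.044 to 0.077 for endothelial markers. The cause of these changes was not tested. No gene of the 17 lists was called in any setting. With 3 arrays a group and no detection call, small differences of dim genes such as Car4 cannot be resolved.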
